A study of Mus musculus with 12 samples.

Results

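Whole right kidneys of mice labelled Grhl2 knockout with Myc overexpression (called Grhl2KO_Myc, n = 4) were compared with kidneys labelled wildtype (n = 5) by sequencing of polyadenylated RNA. These 9 libraries were chosen by genotype label from the 12 of the series, and every gene of the count table entered the comparison. The animals labelled wildtype were R26StopFLMYC; Grhl2 flox/flox, so they carried floxed Grhl2 alleles and, at Rosa26, a MYC transgene kept silent by a stop cassette; no Cre is listed for them. The Grhl2KO_Myc animals came from a cross of HoxB7-Cre; Grhl2flox/+ mice with R26StopFLMYC; Grhl2flox/flox mice. The HoxB7 promoter drives Cre in the ureteric bud lineage, which forms the collecting duct and the lining of the ureter, so the other kidney cells are not targeted. Loss of Grhl2, gain of Myc and presence of Cre change together here and cannot be told apart. The remaining 3 libraries are labelled Myc overexpression (called Myc) and the labels do not name their cross. Their titles and columns carry the tag HET, which the labels do not spell out, so their Grhl2 alleles are not known here. These libraries shared the fit, and their levels stand beside some values. The mice were not treated, and the labels state no age. They also do not say that libraries came from separate animals, so the p-values reflect the spread between libraries, part of which may be technical.

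Grhl2 encodes a grainyhead-family transcription factor of epithelial cells, known for its role near genes of cell junctions and in the shape of the collecting duct. Myc pairs with Max on E-box DNA and is known for raising genes that build ribosomes, translate messenger RNA and make nucleotides. The collecting duct holds principal cells, which take up water and sodium, and intercalated cells, which move acid and base. It gives only a small share of whole-kidney RNA, next to proximal tubule, thick ascending limb, glomeruli and vessels. In such bulk samples fewer cells of a type and less RNA per cell cannot be told apart.

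Levels are given in CPM, the count of a gene scaled to the library total, as mean ± SD over libraries. Differences are Grhl2KO_Myc over wildtype, as a fold or as a log2 fold change with its standard error (SE). Total counts were 52973520 to 98713157 per wildtype library and 75187006 to 108164810 per Grhl2KO_Myc library. Slc34a1 of the proximal tubule and Umod of the thick ascending limb, defining markers of kidney, were present in all 9 libraries. The summed proximal tubule markers were lowest in wildtype 4, Grhl2KO_Myc 3 and Grhl2KO_Myc 4. The Y-linked transcript Ddx3y was at 62.8 to 81.2 CPM in wildtype 5, Grhl2KO_Myc 1 and Grhl2KO_Myc 4 and at 1.33 CPM or less in the other 6, and Grhl2KO_Myc 3 had Ddx3y at 0 and Xist at 0.213 CPM. Xist, expressed from the inactive X chromosome, was at 871 to 962 CPM in wildtype 1 to 4 and Grhl2KO_Myc 2 and at 1.89 CPM or less in the other 4 libraries. Libraries with Xist were thus 4 of 5 in wildtype and 1 of 4 in Grhl2KO_Myc, and those with Y-linked transcripts 1 of 5 and 2 of 4.

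Grhl2 itself was at 29.2, 24.9, 25.6, 23.9 and 25.2 CPM in wildtype and at 18.5, 19.002, 24.3 and 22.3 CPM in Grhl2KO_Myc. The ranges overlapped, and the log2 fold change of -0.29 (SE 0.0925, adjusted p = 0.0816) did not pass the threshold. The labels do not say which exons are removed, and Cre acts in only some of the cells, so this level checks the label weakly. Its relative Grhl3, a grainyhead factor of surface epithelia, was at 3.20, 2.85, 4.13, 2.24 and 2.90 CPM in wildtype and rose to 7.24, 5.40, 8.85 and 4.25 CPM (log2 fold change 1.07, SE 0.218, adjusted p = 0.0130). Myc was at 26.7 ± 6.06 CPM in wildtype and 30.1 ± 2.23 CPM in Grhl2KO_Myc (adjusted p = 0.554). The labels do not say whether reads of the MYC transgene are counted under Myc. With Cre acting in only some of the cells, this level also checks the label weakly.

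**Figure D1:**
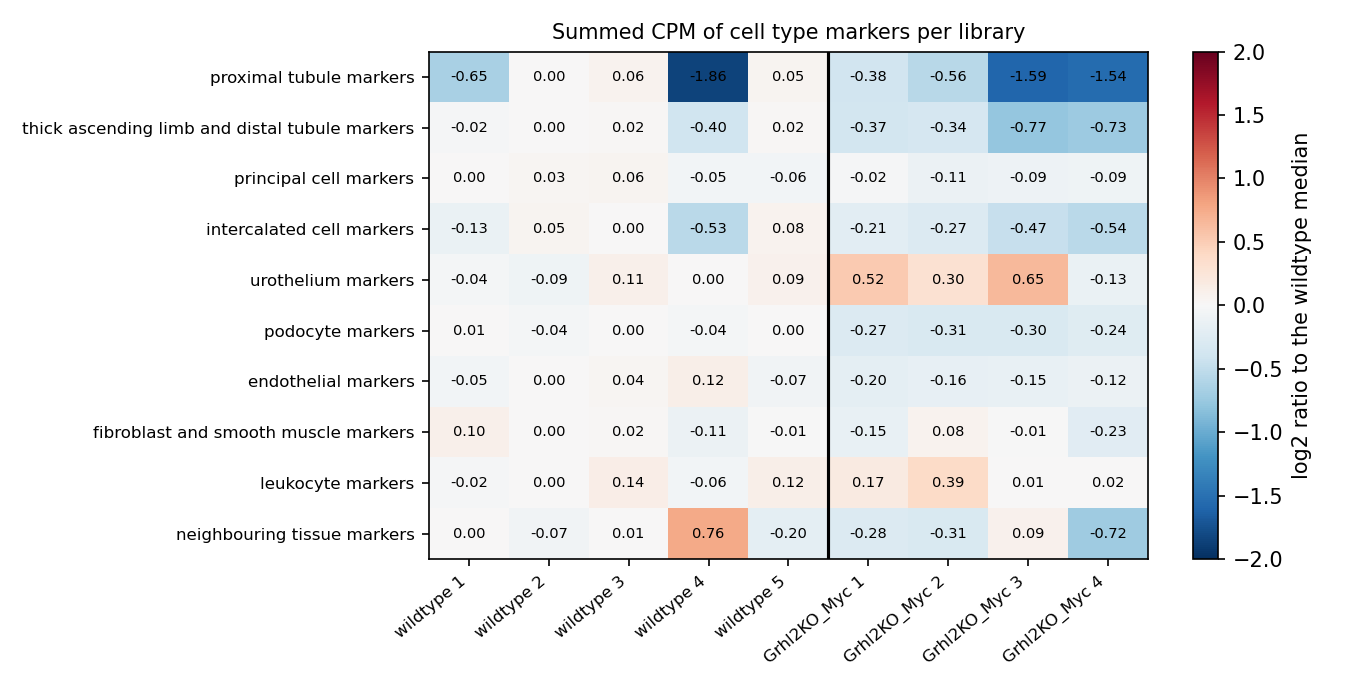
Summed CPM of the markers of 10 cell types or tissues (rows) in the 9 libraries (columns), as log2 ratio to the wildtype median of the same row. Proximal tubule sums were lowest in wildtype 4 (-1.86), Grhl2KO_Myc 3 (-1.59) and Grhl2KO_Myc 4 (-1.54), and podocyte sums were between -0.31 and -0.24 in all 4 Grhl2KO_Myc libraries.

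Of 23742 genes tested, 1584 passed an adjusted p of 0.05, which is 6.67%; 965 were higher (4.06%) and 619 were lower (2.61%) in Grhl2KO_Myc. For 2249 genes (9.47%) the libraries of the groups did not overlap. Genes named below for the size or the adjusted p of their change were picked among these, so their lack of overlap follows from that choice. The counts of called genes given for lists below are to be read beside the 6.67% called among all genes. Most differences were small: the median called gene was 1.31-fold higher or 1.29-fold lower, and 127 higher and 80 lower genes reached 2-fold. Without the 3 libraries low in proximal tubule markers, 51.4% of the called genes were higher, against 60.9% with all libraries. With each of the 9 libraries left out in turn, 640 genes (420 higher, 220 lower) were called every time, and without the 3 libraries that hold Y-linked transcripts 131 and 66 genes were called, with at most 3 in any of the lists described below. A single gene written below as having risen or fallen kept its call with each of the 9 libraries left out in turn, unless stated otherwise beside it.

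The gene with the smallest adjusted p was Slc4a5, which encodes an electrogenic sodium bicarbonate cotransporter (chromosome 6, 83219828 to 83304945, plus strand, mm10). Its level was 5.48, 5.66, 5.03, 4.79 and 5.36 CPM in wildtype and 17.3, 19.5, 20.7 and 18.8 CPM in Grhl2KO_Myc. All Grhl2KO_Myc libraries stood far above all wildtype libraries, with the Myc libraries between them at 7.31, 9.15 and 7.34 CPM. This was a 3.62-fold rise (log2 fold change 1.86, SE 0.0884, adjusted p = 1.24e-06).

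Several genes known from other epithelia, from gut or from nerve cells rose from a low level. Guca2a, the gene of guanylin, a peptide hormone of the gut, was at 1.33, 1.89, 1.73, 1.06 and 1.74 CPM in wildtype and at 6.31, 6.28, 5.93 and 6.36 CPM in Grhl2KO_Myc (log2 fold change 2.00, SE 0.179, adjusted p = 9.87e-05). The Grhl2KO_Myc values lay close together, and the Myc libraries were between the groups at 2.52, 3.04 and 4.21 CPM. Asic4, of the acid-sensing ion channel family, was at 1.06, 0.889, 0.880, 0.944 and 0.757 CPM in wildtype and at 2.79, 3.85, 4.01 and 3.40 CPM in Grhl2KO_Myc (log2 fold change 1.95, SE 0.147, adjusted p = 4.06e-05). Here the Myc libraries stayed at the wildtype level, at 0.723, 0.975 and 0.925 CPM. Jph4, whose protein ties the plasma membrane to the endoplasmic reticulum, rose 3.16-fold, from 1.66 ± 0.322 to 5.23 ± 0.589 CPM. Ccdc116, a coiled-coil gene, rose 4.37-fold, from 1.39 ± 0.168 to 6.06 ± 0.840 CPM. Exons of Asic4 and Ccdc116 overlap Gm37264 and Ydjc on the opposite strand, and reads of such pairs cannot be told apart without strand.

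Other rises led to levels near 1 to 3 CPM. Nefh, the heavy neurofilament subunit, rose 4.28-fold to 1.54 ± 0.482 CPM, and Lmo3, a LIM-domain cofactor, rose 3.81-fold to 1.27 ± 0.243 CPM. Lgals7, the galectin-7 of stratified epithelia, rose 3.83-fold, from 0.582 ± 0.142 to 2.25 ± 0.425 CPM. Fgf15, a growth factor best known as a gut hormone, rose 6.67-fold to 2.96 ± 1.18 CPM, and its exons overlap Gm26793 on the opposite strand. Spock1, a secreted proteoglycan gene, rose 3.63-fold to 1.90 ± 1.08 CPM, with Grhl2KO_Myc 2 at 3.50 CPM and the others at 1.20 to 1.58 CPM.

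Some rises were found at higher levels. Padi2, which converts arginine to citrulline in proteins, was at 32.7, 32.8, 27.0, 26.9 and 30.6 CPM in wildtype and at 56.5, 53.8, 70.7 and 72.4 CPM in Grhl2KO_Myc, a rise of 2.11-fold (log2 fold change 1.08, SE 0.0975, adjusted p = 0.000102). Bex4, of the brain-expressed X-linked family, rose 2.04-fold, from 17.7 ± 1.55 to 36.0 ± 2.75 CPM, with the Myc libraries between at 21.6 to 26.1 CPM. Abi3bp, a matrix protein gene, was at 5.51 to 7.59 CPM in wildtype and at 11.8, 16.9, 30.3 and 21.2 CPM in Grhl2KO_Myc, so its 2.97-fold rise varied widely between libraries. Hsd3b6, a steroid dehydrogenase gene with close paralogs that may share its reads, rose 3.22-fold to 16.6 ± 4.87 CPM. Exons of Padi2 overlap Gm13031 on the opposite strand.

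**Figure D2:**
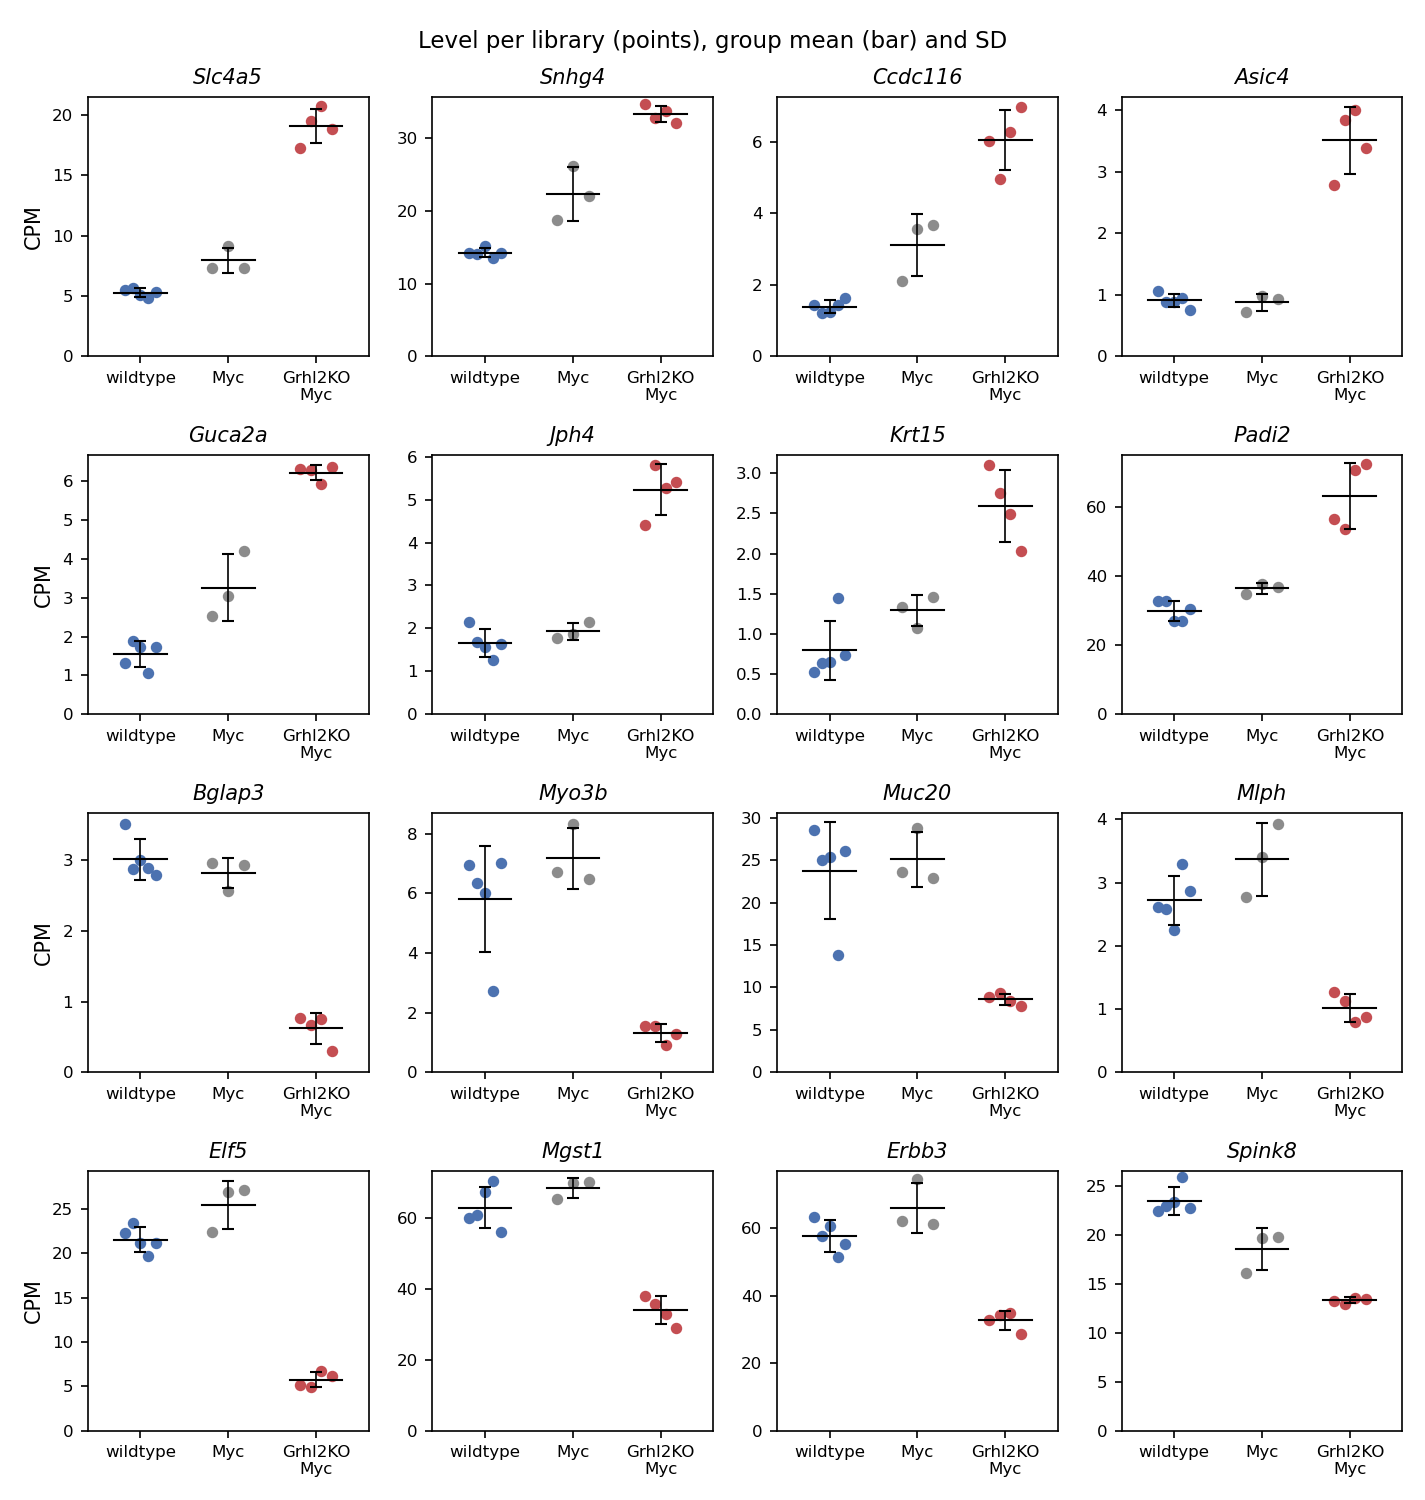
Level in CPM (vertical axes, from 0) of 8 genes that rose and 8 that fell, with one point per library of wildtype, Myc and Grhl2KO_Myc, the mean as a bar and the SD as an error line. In all 16 panels the Grhl2KO_Myc points lie outside the wildtype range, which the rule for naming genes by size or adjusted p of change required. Wildtype 4 is the lowest wildtype library for Myo3b (2.73 CPM) and Muc20 (13.8 CPM).

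Among the falls, Elf5 had the smallest adjusted p and is taken up with its family below. Erbb3, a receptor of neuregulins, was at 63.3, 57.6, 60.8, 51.4 and 55.5 CPM in wildtype and at 32.8, 34.2, 35.0 and 28.7 CPM in Grhl2KO_Myc. All Grhl2KO_Myc libraries were below all wildtype libraries, a fall of 1.77-fold (log2 fold change -0.82, SE 0.0830, adjusted p = 0.000207), and the Myc libraries were at 62.2, 74.7 and 61.2 CPM. Spink8, of the Kazal protease inhibitor family, was at 22.4, 22.9, 23.4, 25.9 and 22.7 CPM in wildtype and at 13.2, 12.9, 13.6 and 13.5 CPM in Grhl2KO_Myc (log2 fold change -0.82, SE 0.0726, adjusted p = 9.87e-05). Within each group the Spink8 values differed little, and the Myc libraries lay between at 16.0, 19.7 and 19.8 CPM.

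Muc20, a membrane mucin gene, was at 28.5, 25.004, 25.4, 13.8 and 26.1 CPM in wildtype and at 8.85, 9.33, 8.43 and 7.85 CPM in Grhl2KO_Myc (log2 fold change -1.46, SE 0.175, adjusted p = 0.000667). Wildtype 4 was the lowest control and still above each Grhl2KO_Myc library. Myo3b, a class III myosin, had the same layout, with 6.94, 6.36, 6.01, 2.73 and 7.01 CPM against 1.55, 1.56, 0.928 and 1.28 CPM (log2 fold change -2.13, SE 0.262, adjusted p = 0.000734). Exons of Muc20 overlap Muc4 on the opposite strand, and those of Myo3b overlap Gm13631 on the same strand. Mgst1, a membrane-bound glutathione transferase, fell 1.86-fold to 33.8 ± 3.95 CPM, and Mlph, which couples Rab27a vesicles to myosin, fell 2.68-fold to 1.02 ± 0.217 CPM.

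Ros1, a receptor tyrosine kinase, was at 12.3, 10.6, 11.1, 10.9 and 11.4 CPM in wildtype and at 4.12, 3.33, 5.57 and 5.87 CPM in Grhl2KO_Myc (log2 fold change -1.25, SE 0.151, adjusted p = 0.000685). The Myc libraries lay between the groups at 10.2, 8.43 and 7.998 CPM. Crabp1, a binder of retinoic acid, fell 2.58-fold, from 5.97 ± 0.947 to 2.32 ± 0.446 CPM, with the Myc libraries at 2.64 to 4.16 CPM. Cntn1, a neuronal adhesion protein gene, fell 2.12-fold to 1.28 ± 0.230 CPM, and there the Myc libraries were as low, at 1.10 to 1.54 CPM. Nppc, the gene of C-type natriuretic peptide, fell 2.03-fold to 0.743 ± 0.0892 CPM, and Tacr1, the substance P receptor gene, fell 2.14-fold to 0.704 ± 0.158 CPM. Vtcn1, an immune checkpoint ligand of epithelia, fell 2.92-fold to 0.401 ± 0.136 CPM.

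Transcription factors of the collecting duct and ureteric bud moved in both directions: of 24 tested, 3 were called lower and 1 higher, and their median log2 fold change was -0.05, against -0.01 for all genes. The higher calls numbered 3 without wildtype 4, where the median was 0.03, and 2 without wildtype 5. Lhx1, a LIM-homeobox factor of nephron and duct formation, was at 101, 85.9, 78.2, 81.3 and 86.8 CPM in wildtype and at 51.2, 50.9, 53.8 and 60.0 CPM in Grhl2KO_Myc. It fell 1.603-fold (log2 fold change -0.68, SE 0.0869, adjusted p = 0.000896), and the groups stood clear of each other. Gata2, a zinc-finger factor of the collecting duct, was at 46.5, 47.7, 42.8, 52.6 and 45.1 CPM in wildtype and at 67.9, 63.0, 86.2 and 76.8 CPM in Grhl2KO_Myc, a rise of 1.57-fold (log2 fold change 0.65, SE 0.0997, adjusted p = 0.00279). The Myc libraries, at 51.2, 60.6 and 67.4 CPM, reached from one group to the other. Pax8, a paired-box factor of renal epithelium, fell 1.19-fold (113 ± 4.42 against 135 ± 4.56 CPM, adjusted p = 0.00997). Hoxd10 passed with all libraries (log2 fold change -0.26, adjusted p = 0.0427) but in only the fits without wildtype 4 or wildtype 5 among the 9, with an adjusted p of up to 0.111 in the others.

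ETS factors, which share a DNA-binding domain and include regulators of epithelial cells, gave 1 rise and 4 falls among 21 tested. Elf5, found in principal cells, was at 22.2, 23.4, 21.2, 19.6 and 21.1 CPM in wildtype and at 5.15, 4.94, 6.75 and 6.13 CPM in Grhl2KO_Myc (log2 fold change -1.90, SE 0.105, adjusted p = 3.55e-06). Ehf, an ETS factor close to Elf5 in kind, went the other way, from 43.5, 40.03, 42.4, 46.3 and 41.4 CPM to 71.5, 65.5, 80.7 and 70.4 CPM (log2 fold change 0.75, SE 0.0812, adjusted p = 0.000311). Neither gene's groups overlapped, and the Myc libraries were at 22.4 to 27.1 CPM for Elf5 and at 44.7 to 57.9 CPM for Ehf. The other 3 falls, of Ets1, Elf1 and Elf4, had log2 fold changes of -0.20, -0.22 and -0.30 and were each lost in 6 or 7 of the 9 fits with 1 library left out (adjusted p up to 0.121), so that 1 fall remained without wildtype 1 or without Grhl2KO_Myc 1, 3 or 4, and 2 without wildtype 2, wildtype 3 or Grhl2KO_Myc 2.

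The summed level of principal cell markers was 2121 to 2304 CPM in wildtype and 2049 to 2174 CPM in Grhl2KO_Myc. They gave 3 falls among 21 tested (14.3%, against 6.67% of all genes), with a median log2 fold change of 0.00. Besides Elf5, these were Avpr2, the vasopressin receptor gene, which fell 1.91-fold, from 14.2 ± 0.242 to 7.45 ± 1.30 CPM, and Aqp4, a water channel of the basolateral membrane, which fell 2.44-fold to 15.2 ± 4.78 CPM. Aqp2, the vasopressin-regulated water channel, was at 370 ± 123 and 328 ± 54.0 CPM (adjusted p = 0.702). Without wildtype 4, 4 principal cell markers were higher and 8 were lower, and without Grhl2KO_Myc 1 the lower ones were 5. Cldn8, a tight junction claudin of the distal nephron, was at 142, 136, 145, 176 and 131 CPM in wildtype and at 73.6, 79.7, 79.5 and 56.6 CPM in Grhl2KO_Myc (log2 fold change -1.01, SE 0.112, adjusted p = 0.000372). Cldn7, another claudin of the same segments, rose 1.35-fold, from 56.2 ± 4.59 to 76.1 ± 4.57 CPM, and these were the only calls among 21 claudins tested with all libraries (9.52%); without wildtype 4 there were 3 in each direction.

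Intercalated cell markers gave 1 rise and 3 falls among 19 tested (median log2 fold change -0.30). Slc26a7, a chloride and bicarbonate exchanger, was at 13.6, 12.3, 13.4, 18.95 and 13.5 CPM in wildtype and at 7.28, 8.58, 9.20 and 8.13 CPM in Grhl2KO_Myc (log2 fold change -0.79, SE 0.119, adjusted p = 0.00255). Wildtype 4 was the highest, and no libraries overlapped. Aqp6, an intracellular channel of acid-secreting cells, fell 3.10-fold to 2.11 ± 0.386 CPM. Foxi1, the transcription factor that defines these cells, was higher at 35.6 ± 4.94 against 22.9 ± 1.97 CPM (adjusted p = 0.0261); the call did not hold when Grhl2KO_Myc 1, 3 or 4 or wildtype 1 or 3 was left out (adjusted p up to 0.0818). The fourth, Jag1, is described with the Notch pathway. The summed markers were 552.1 to 840.7 CPM in wildtype and 547.8 to 691.6 CPM in Grhl2KO_Myc, and without wildtype 4 there were 7 lower markers.

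Markers of urothelium, the lining of the renal pelvis, and keratins were higher in part. Of 19 urothelium markers 3 rose (median log2 fold change 0.38), namely Grhl3, Krt19 and Shh, and of 17 keratins 4 rose (0.27). With 1 library left out these medians ran from 0.32 to 0.72 for urothelium, highest without Grhl2KO_Myc 4, and from 0.16 without wildtype 1 to 0.44 without Grhl2KO_Myc 4 for keratins. Krt19, a keratin of simple and ductal epithelia, was at 21.6, 21.3, 29.9, 33.8 and 25.4 CPM in wildtype and at 57.7, 44.5, 63.5 and 34.9 CPM in Grhl2KO_Myc (log2 fold change 0.93, SE 0.183, adjusted p = 0.0112). Krt15, a keratin of basal cells, was at 0.521, 0.634, 0.649, 1.44 and 0.739 CPM in wildtype and at 3.10, 2.76, 2.49 and 2.04 CPM in Grhl2KO_Myc (log2 fold change 1.69, SE 0.262, adjusted p = 0.00280). Grhl2KO_Myc 4 had the lowest Krt19 and Krt15 of its group. The defining uroplakins showed the same split within the group, with Upk3a at 27.7, 19.1, 27.9 and 5.36 CPM in Grhl2KO_Myc against 11.97, 12.04, 18.7, 8.47 and 17.8 CPM in wildtype (adjusted p = 0.472). The summed urothelium markers were 328.2 to 375.4 CPM in wildtype and 319.3 to 548.1 CPM in Grhl2KO_Myc, and the part of the amount of urothelium in these keratin values was not tested. Krt4, of stratified linings, stood higher in every Grhl2KO_Myc library, at 4.71, 4.24, 5.68 and 2.30 CPM against 0.198 to 0.530 CPM (log2 fold change 3.56, SE 0.291, adjusted p = 6.09e-05). Krt78 (adjusted p = 0.0241) and Shh, the hedgehog ligand (log2 fold change 0.75, adjusted p = 0.0362, with exons that overlap Gm26894 and 9530036O11Rik on the opposite strand), lost their calls in 5 and 6 of the 9 fits, among them those without wildtype 1, 2 or 3 and without Grhl2KO_Myc 1 or 3 for both.

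**Figure D3:**
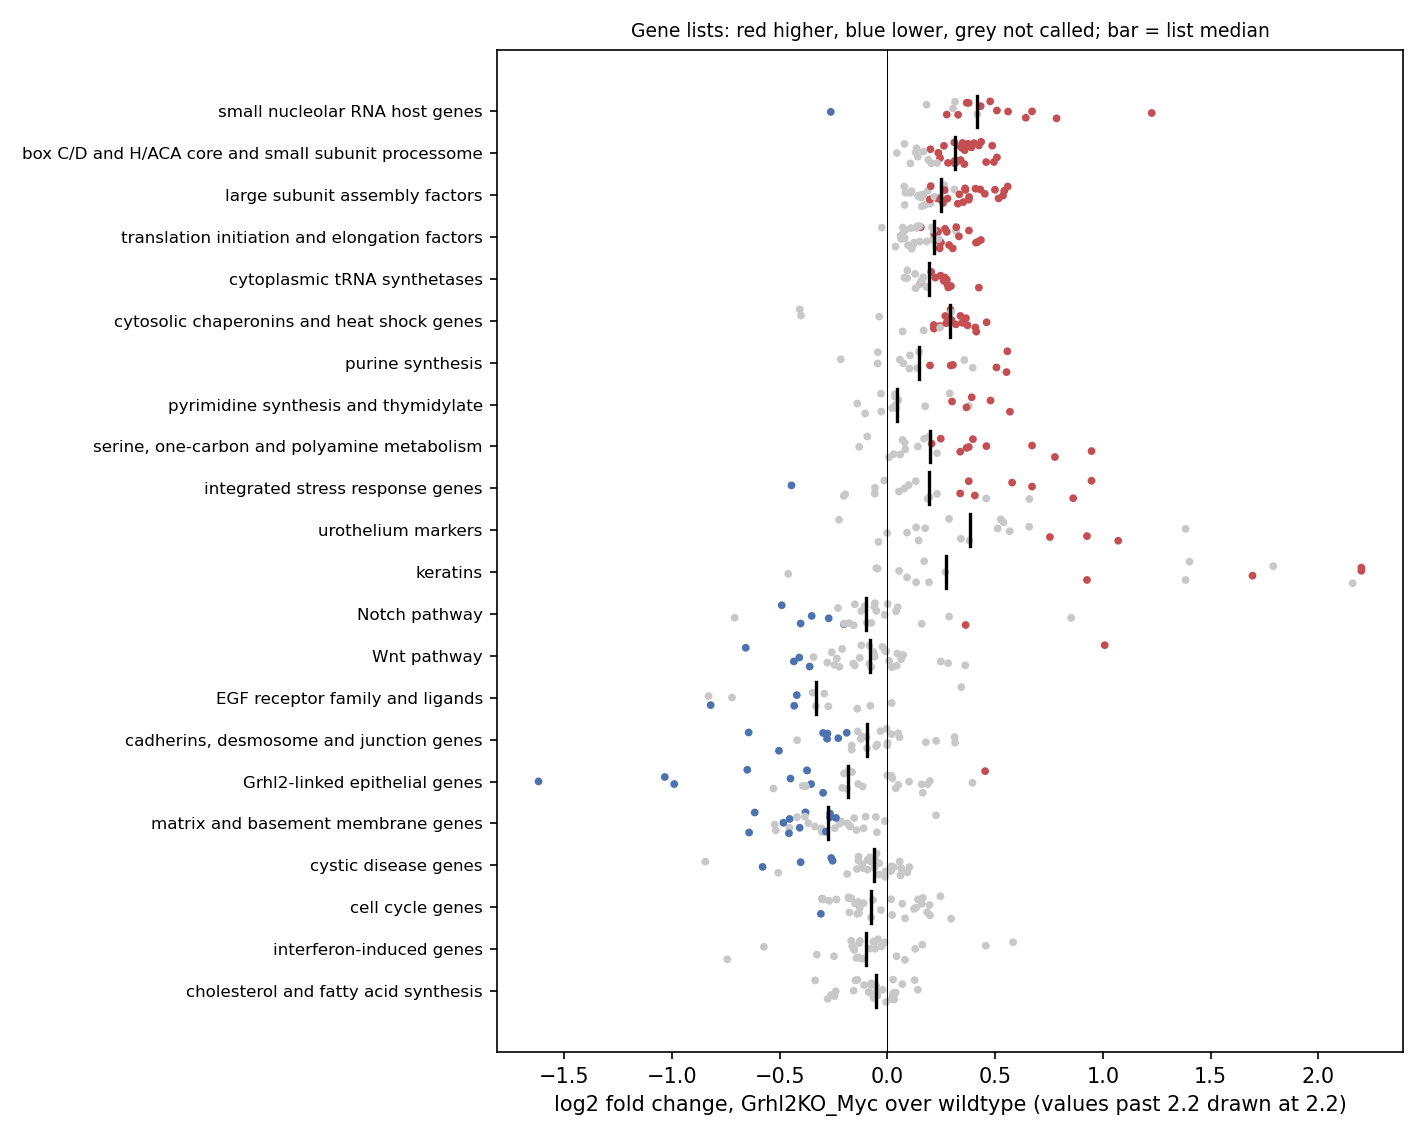
Log2 fold change of Grhl2KO_Myc over wildtype (horizontal axis) for each tested gene of 22 lists (rows); red genes were called higher, blue ones lower and grey ones not called, a bar marks the median, and values past 2.2 are drawn at 2.2. The lists of nucleolar and translation genes lie to the right, as in the box C/D and processome row (median 0.31), and the matrix row lies to the left (median -0.28).

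The EGF receptor family passes growth signals from ligands to tubule cells. Of 13 EGF receptor family genes and ligands tested, 3 fell and 0 rose (median log2 fold change -0.33, with 11 of 13 below 0). Besides Erbb3, the ligand Tgfa was at 24.6, 21.4, 19.4, 21.005 and 21.2 CPM in wildtype and at 15.6, 16.6, 15.7 and 15.8 CPM in Grhl2KO_Myc (log2 fold change -0.43, SE 0.0674, adjusted p = 0.00292). No libraries overlapped for Tgfa, and the Myc libraries were near the lower wildtype values at 19.2 to 20.7 CPM. The receptor Egfr was lower at 16.1 ± 1.77 against 21.6 ± 2.66 CPM with an adjusted p of 0.0440, and lost its call in every fit with 1 library left out except those without wildtype 4 or Grhl2KO_Myc 2 (adjusted p up to 0.127). Without wildtype 4 there were 5 falls. Of 16 Hedgehog pathway genes 2 were called higher and 0 lower (12.5%, against 6.67% of all genes). They were Shh, described above, and Disp2, which serves the release of the ligand. Disp2 was at 0.0801 CPM on average in wildtype and at 1.67 ± 1.86 CPM in Grhl2KO_Myc, with Grhl2KO_Myc 2 at 4.44 CPM. The higher calls numbered 1 without wildtype 2 or 3 or without Grhl2KO_Myc 1, 3 or 4, and 4, with 2 lower ones, without wildtype 4.

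In the Notch pathway, in which ligands on one cell activate receptors on its neighbour, 5 of 26 tested genes fell and 1 rose (median log2 fold change -0.10). Jag1, a ligand, was at 154, 139, 127, 133 and 138 CPM in wildtype and at 101, 97.6, 111 and 109 CPM in Grhl2KO_Myc (log2 fold change -0.40, SE 0.0687, adjusted p = 0.00517). Hey1, a target that represses transcription, was at 43.7, 35.4, 31.6, 39.8 and 33.4 CPM in wildtype and at 26.7, 24.9, 26.3 and 26.8 CPM in Grhl2KO_Myc (log2 fold change -0.49, SE 0.0965, adjusted p = 0.0109). Both were lower in every Grhl2KO_Myc library. The calls of Hey2 (log2 fold change -0.35), Notch1 (-0.27), Notch4 (-0.20) and the ubiquitin ligase gene Dtx1 (0.36) were each lost in 3 to 7 of the 9 fits. The falls numbered 2 without wildtype 2 or without Grhl2KO_Myc 3 or 4, and 3 without wildtype 1 or without Grhl2KO_Myc 1 or 2.

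In the Wnt pathway, which directs growth of the ureteric bud and nephron, 4 of 34 tested genes fell and 1 rose (median log2 fold change -0.08). The share called was 14.7%, against 6.67% of all genes. Sfrp2, a secreted Wnt modulator, was at 99.1, 98.6, 93.8, 108 and 101 CPM in wildtype and at 72.2, 79.0, 80.3 and 69.7 CPM in Grhl2KO_Myc (log2 fold change -0.41, SE 0.0590, adjusted p = 0.00182). Wnt4, a ligand of tubule formation, was at 111, 114, 105, 93.3 and 109 CPM in wildtype and at 72.1, 79.2, 87.5 and 92.7 CPM in Grhl2KO_Myc (log2 fold change -0.36, SE 0.0783, adjusted p = 0.0184). The groups nearly touched for Wnt4 and were well apart for Sfrp2. The receptors Fzd4 (log2 fold change -0.66, adjusted p = 0.0241) and Lgr4 (-0.43, adjusted p = 0.0370) and the ligand Wnt10a (1.01, adjusted p = 0.0427) lost their calls in 3, 5 and 7 of the 9 fits. The falls numbered 2 without Grhl2KO_Myc 2 or 4, and 10 without the 3 libraries low in proximal tubule markers. Of 22 FGF ligands and receptors, Fgf15 and Fgf12 rose and Fgfr1, Fgfr3 and Fgfr4 fell, of which only Fgf15 kept its call in all 9 fits; Fgfr3 (log2 fold change -0.42) lost it only without Grhl2KO_Myc 4 (adjusted p = 0.0520). In the TGF-beta and BMP pathway, 1 of 34 tested genes passed (2.94%), the ligand gene Bmp2, which fell 1.31-fold to 10.8 ± 0.798 CPM.

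Junction genes hold epithelial cells together and seal the space between them. Of 28 tested cadherins, desmosome and other junction genes, 7 fell and 0 rose (median log2 fold change -0.10), and 2 were higher without wildtype 4. Dsp, the desmoplakin gene of the desmosome, was at 61.8, 57.0, 58.7, 65.8 and 56.7 CPM in wildtype and at 40.4, 39.6, 48.4 and 40.9 CPM in Grhl2KO_Myc (log2 fold change -0.50, SE 0.0662, adjusted p = 0.00105). Cdh6, a cadherin of the developing nephron, was at 9.69, 8.20, 8.61, 7.97 and 7.58 CPM in wildtype and at 5.15, 5.50, 5.81 and 5.06 CPM in Grhl2KO_Myc (log2 fold change -0.64, SE 0.107, adjusted p = 0.00448). Both groups were clear of each other for both genes, and exons of Dsp overlap Gm10129 on the opposite strand. Cgn, the cingulin gene of the tight junction, fell 1.23-fold to 41.9 ± 1.83 CPM, Mpp5, of a polarity complex, fell 1.21-fold to 46.9 ± 1.07 CPM, and Epcam, an adhesion molecule of epithelia, fell 1.21-fold to 171 ± 2.07 CPM. Tjp1, the ZO-1 scaffold gene, was 1.14-fold lower, a call lost without wildtype 1 or 3 or without Grhl2KO_Myc 1, 2 or 4 (adjusted p up to 0.0687). Cdh1, the E-cadherin gene that is a textbook Grhl2 target, was at 225 ± 8.81 and 225 ± 12.1 CPM, with a log2 fold change of -0.00 (SE 0.0493, adjusted p = 0.993).

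Among 31 genes linked to Grhl2 in other epithelia, 8 fell and 1 rose (median log2 fold change -0.18). Arhgef19, a guanine nucleotide exchange factor gene, was at 24.5, 23.1, 19.2, 16.9 and 23.3 CPM in wildtype and at 9.36, 11.2, 10.8 and 10.5 CPM in Grhl2KO_Myc (log2 fold change -1.03, SE 0.114, adjusted p = 0.000372). Macc1, named from colon cancer, fell 3.07-fold to 0.903 ± 0.359 CPM, and Ovol2, a zinc-finger factor of epithelial identity, fell 1.99-fold to 0.521 ± 0.154 CPM; exons of Ovol2 overlap 1700108N11Rik on the opposite strand. Rab11fip1, a vesicle recycling gene, fell 1.37-fold to 19.4 ± 0.827 CPM. Ap1m2, the epithelial adaptor subunit for basolateral sorting, was the member that rose, from 30.7, 29.2, 29.7, 32.0 and 29.8 CPM to 40.1, 39.4, 43.5 and 42.8 CPM (log2 fold change 0.45, SE 0.0529, adjusted p = 0.000572). For Ap1m2 the groups were clear of each other and the Myc libraries lay between them at 34.1 to 38.9 CPM. The falls in this list numbered 5 without wildtype 1 or without Grhl2KO_Myc 4.

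Matrix and basement membrane genes were lower as a set of values: 11 of 34 tested fell, 0 rose, and 33 of 34 log2 fold changes were below 0 (median -0.28, against -0.01 for all genes). The summed level of the list was 10135 to 12419 CPM in wildtype and 9524 to 10340 CPM in Grhl2KO_Myc. Wildtype 4, the lowest control, lay within the Grhl2KO_Myc range. Frem2 and Fras1 encode partners of one extracellular complex that joins epithelium to stroma in the developing kidney. Frem2 was at 168, 176, 174, 125 and 176 CPM in wildtype and at 108, 106, 107 and 106 CPM in Grhl2KO_Myc (log2 fold change -0.62, SE 0.0915, adjusted p = 0.00225). Fras1 was at 188, 173, 176, 158 and 179 CPM in wildtype and at 113, 119, 133 and 135 CPM in Grhl2KO_Myc (log2 fold change -0.48, SE 0.0685, adjusted p = 0.00165). Both were lower in every Grhl2KO_Myc library, with wildtype 4 the lowest control. Nid2, a nidogen that links laminin to collagen, fell 1.37-fold to 149 ± 11.2 CPM, and the laminin chain genes Lamb1 and Lama4 fell 1.30-fold and 1.33-fold, to 522 ± 23.1 and 99.1 ± 8.16 CPM. Agrn, a heparan sulfate proteoglycan gene, fell 1.37-fold to 481 ± 44.4 CPM.

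The matrix count moved with the libraries, to 22 without wildtype 4, to 6 without wildtype 1 or 3, and to 7 without wildtype 2 or any 1 of the Grhl2KO_Myc libraries. Podocyte and vessel markers, whose cells also make basement membrane, were lower in Grhl2KO_Myc as well. Podocyte sums were 2182 to 2262 CPM in wildtype and 1812 to 1908 CPM in Grhl2KO_Myc. Endothelial sums were 1470 to 1666 and 1343 to 1411 CPM, and fibroblast and smooth muscle sums overlapped. Within wildtype, wildtype 4 had the lowest matrix sum (10135 CPM) and podocyte sum (2182 CPM) but the highest endothelial sum (1666 CPM). The part of these cells in the matrix values was not tested. Of 20 podocyte markers 6 fell (median log2 fold change -0.25), led by Podxl, a surface sialoprotein, at 412, 414, 460, 399 and 416 CPM in wildtype and 322, 309, 300 and 330 CPM in Grhl2KO_Myc (log2 fold change -0.41, SE 0.0666, adjusted p = 0.00367). Nphs1, the nephrin gene of the filtration slit, was at 65.3 ± 10.9 and 42.0 ± 6.29 CPM with an adjusted p of 0.0217, and its call did not hold when Grhl2KO_Myc 3 or 4 or wildtype 1 or 3 was left out. The podocyte falls numbered 2 without wildtype 1 or without Grhl2KO_Myc 3 or 4, and 3 without wildtype 3. Of 20 endothelial markers 4 fell (median -0.15), of which Tek, an angiopoietin receptor, fell 1.23-fold to 62.9 ± 3.84 CPM in every fit; the falls numbered 1 without Grhl2KO_Myc 3 and 2 without wildtype 3 or Grhl2KO_Myc 4.

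Other tubule segments gave few calls with all libraries. Of 30 proximal tubule markers 1 fell, Hnf4a, the nuclear receptor of that segment, from 178 ± 32.8 to 114 ± 13.7 CPM (log2 fold change -0.65, SE 0.130, adjusted p = 0.0120). Its call was lost without the 3 libraries low in proximal tubule markers (log2 fold change -0.56, adjusted p = 0.0531). The share called in this list was 3.33%, while 29 of 30 values were below 0 (median -0.51) and 13 fell without wildtype 4. Their summed level was 2097 to 7931 CPM in wildtype and 2525 to 5836 CPM in Grhl2KO_Myc. Of 20 markers of the thick ascending limb and distal tubule 4 fell and all 20 were below 0 (median -0.41). Klhl3, a ubiquitin ligase adaptor of the distal tubule, was at 10.1, 9.42, 9.75, 6.76 and 10.4 CPM in wildtype and at 5.07, 5.80, 6.04 and 4.83 CPM in Grhl2KO_Myc (log2 fold change -0.77, SE 0.137, adjusted p = 0.00665). The other 3, S100g, Fxyd2 and Wnk1, lost their calls in 5 to 7 of the 9 fits; the falls numbered 12 without wildtype 4, 1 without wildtype 1, 2 or 3 or without Grhl2KO_Myc 3 or 4, and 2 without wildtype 5.

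Cystic kidney disease genes encode proteins of the primary cilium and of tubule shape, and 4 of 33 tested fell (median log2 fold change -0.06). The share called was 12.1%, against 6.67% of all genes. Muc1, a membrane mucin of distal tubule and duct, was at 40.1, 36.1, 34.0, 34.6 and 33.6 CPM in wildtype and at 23.9, 28.4, 21.8 and 21.5 CPM in Grhl2KO_Myc (log2 fold change -0.58, SE 0.0839, adjusted p = 0.00186). Pkd2, Glis2 and Glis3 had log2 fold changes of -0.25, -0.40 and -0.26 and lost their calls in 7 or 8 of the 9 fits, so that Muc1 alone passed without wildtype 1, 2, 3 or 5 or without Grhl2KO_Myc 2, 3 or 4; 9 genes fell without wildtype 4. Pkd1 and Pkhd1 were at 103 ± 9.11 and 60.7 ± 19.1 CPM in wildtype and at 96.7 ± 5.76 and 42.7 ± 6.17 CPM in Grhl2KO_Myc (adjusted p = 0.428 and 0.213). Among 35 genes of cyclic AMP and fluid secretion 3 fell and 2 were called higher (14.3% called), and 6 fell without wildtype 4. Besides Avpr2, the phosphodiesterase genes Pde1c and Pde3a fell 1.63-fold and 1.31-fold, to 2.28 ± 0.103 and 56.4 ± 4.90 CPM. The higher calls, of the channel genes Kcnn4 and Clcn2, were lost in 6 and 7 of the 9 fits. Cftr, the chloride channel of cyclic AMP driven secretion, was at 17.8 ± 1.65 and 15.2 ± 1.53 CPM (adjusted p = 0.130).

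Genes of ribosome assembly rose in large part. Of 35 tested genes of the box C/D and H/ACA particles and the small subunit processome, which modify and cut ribosomal RNA, 24 rose and 0 fell, and all 35 were above 0 (median log2 fold change 0.31). Nop58, a core box C/D protein gene, was at 89.3, 95.7, 92.6, 92.4 and 95.8 CPM in wildtype and at 114, 115, 119 and 127 CPM in Grhl2KO_Myc (log2 fold change 0.35, SE 0.0421, adjusted p = 0.000685). The Myc libraries lay between the groups at 101, 104 and 102 CPM. Nop56, its partner, rose 1.42-fold to 160 ± 10.6 CPM, and Dkc1, the pseudouridine synthase of H/ACA particles, rose 1.35-fold to 59.4 ± 5.52 CPM. Rcl1, of the processome, rose 1.37-fold to 33.7 ± 1.05 CPM. The count was 15 without Grhl2KO_Myc 4 and 19 without the 3 libraries low in proximal tubule markers.

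Of 43 large subunit assembly factors, 23 rose and 0 fell, with all 43 above 0 (median log2 fold change 0.25). Noc2l, a nucleolar protein gene whose exons overlap Samd11 on the opposite strand, was at 91.4, 93.7, 93.7, 97.2 and 98.7 CPM in wildtype and at 136, 132, 143 and 148 CPM in Grhl2KO_Myc (log2 fold change 0.56, SE 0.0488, adjusted p = 9.15e-05). Nle1 and Gnl3, both of late large subunit assembly, rose 1.45-fold and 1.41-fold, to 23.0 ± 1.04 and 67.1 ± 2.33 CPM. Nop2, a ribosomal RNA methyltransferase gene, rose 1.37-fold, from 37.9 ± 2.51 to 51.9 ± 3.44 CPM. The count was 15 without Grhl2KO_Myc 4 and 24 without the 3 libraries low in proximal tubule markers. Ncl and Npm1, abundant nucleolar proteins, rose 1.34-fold and 1.33-fold, to 717 ± 43.3 and 739 ± 63.0 CPM. Fewer calls came from the polymerases themselves, with 4 of 20 genes of RNA polymerase I and its factors higher and 3 of 22 of RNA polymerase III; Polr1e rose 1.37-fold to 17.8 ± 0.996 CPM and Polr3g 1.33-fold to 9.59 ± 0.406 CPM. Of these lists 12 and 6 genes were higher without wildtype 4. The first gave 2 without Grhl2KO_Myc 3 or 4, and the second gave 1 without wildtype 2, wildtype 3, Grhl2KO_Myc 3 or Grhl2KO_Myc 4. The summed RNA polymerase I list was 723.8 to 829.9 CPM in wildtype, highest in wildtype 4, and 778.8 to 897.2 CPM in Grhl2KO_Myc.

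Host genes of small nucleolar RNAs, whose introns hold these guides of ribosomal RNA modification, gave 12 rises and 1 lower call among 17 tested (median log2 fold change 0.42). The lower call was lost in 7 of the 9 fits, all but those without wildtype 4 or Grhl2KO_Myc 2. With 1 library left out the rises numbered 8 to 16. The summed host genes were 2901 to 3884 CPM in wildtype and 3841 to 4207 CPM in Grhl2KO_Myc. Wildtype 4, the highest control, lay within the Grhl2KO_Myc range. Snhg4 was at 14.2, 14.1, 15.2, 13.5 and 14.2 CPM in wildtype and at 34.7, 32.8, 33.8 and 32.1 CPM in Grhl2KO_Myc (log2 fold change 1.23, SE 0.0819, adjusted p = 1.73e-05). Values within each group were close, and the Myc libraries lay between at 18.7, 26.1 and 22.1 CPM. Snhg3 rose 1.72-fold to 20.4 ± 0.735 CPM, Snhg12 1.56-fold to 19.5 ± 3.00 CPM and Gas5 1.47-fold to 240 ± 8.41 CPM. Of 189 genes annotated as small nucleolar RNAs themselves, 22 rose and 0 fell (median 0.37); such short RNAs lack a long poly(A) tail, and reads over their loci cannot be told from those of host introns. Snord78, which lies within Gas5, was at 2.86 CPM on average in wildtype and 4.67 CPM in Grhl2KO_Myc (adjusted p = 0.00256).

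All 77 tested cytosolic ribosomal protein genes were above 0, with a median log2 fold change of 0.28, and 7 of them passed (9.09%). The share called was 6.67% of all genes and 9.24% of genes above 100 CPM. Of these 7, Rpl3 and Rpl7a lost their calls in 8 of the 9 fits with 1 library left out. Of 44 initiation and elongation factors 18 rose and 0 fell (median 0.22). Their summed level was 17351 to 20710 CPM in wildtype, highest in wildtype 4, and 20282 to 22203 CPM in Grhl2KO_Myc, so the sums overlapped. Eif5a, the hypusine-bearing elongation factor gene, was at 336, 336, 315, 367 and 359 CPM in wildtype and at 412, 428, 495 and 515 CPM in Grhl2KO_Myc (log2 fold change 0.43, SE 0.0789, adjusted p = 0.00751). Eef1e1, of the synthetase complex, rose 1.30-fold to 20.8 ± 0.339 CPM, and Eif1a, of start codon selection, rose 1.20-fold to 109 ± 6.10 CPM. The list's count rested on single libraries: it was 33 without wildtype 4, 6, 5, 7 and 9 without wildtype 1, 2, 3 and 5, 11 without Grhl2KO_Myc 1, and 4 without Grhl2KO_Myc 3 or 4. Of 20 cytoplasmic tRNA synthetases, which charge transfer RNAs, 11 rose and 0 fell (median 0.19). Vars, for valine, rose 1.34-fold to 194 ± 23.2 CPM, and Mars, for methionine, rose 1.23-fold to 73.4 ± 2.70 CPM. Here the count was 4 without Grhl2KO_Myc 3 or 4, 5 without wildtype 2 or 3, 6 without wildtype 1 and 7 without wildtype 5 or Grhl2KO_Myc 2.

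Of 23 chaperonin and heat shock genes of the cytosol and mitochondria, which fold new proteins, 16 rose and 0 fell (median log2 fold change 0.29). Hspd1, the mitochondrial chaperonin gene that shares exon sequence with Hspe1 on the opposite strand, was at 293, 325, 340, 293 and 341 CPM in wildtype and at 448, 405, 428 and 471 CPM in Grhl2KO_Myc (log2 fold change 0.46, SE 0.0711, adjusted p = 0.00280). Cct3 and Cct8, of the ring that folds actin and tubulin, rose 1.33-fold and 1.22-fold, to 259 ± 19.8 and 251 ± 12.2 CPM, and Hspa8, a constitutive heat shock protein gene, rose 1.33-fold to 2116 ± 92.6 CPM. The count was 8 without Grhl2KO_Myc 4, 9 without Grhl2KO_Myc 3 and 10 without wildtype 2 or 3, and 2 genes were lower without wildtype 4 or Grhl2KO_Myc 1. Among 22 chaperones and unfolded protein response genes of the endoplasmic reticulum, 1 was called (4.55%), Manf (log2 fold change 0.34), and it lost its call in 4 of the 9 fits.

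Nucleotide synthesis gave 6 rises among 17 purine genes and 5 among 18 pyrimidine and thymidylate genes, with 0 falls in either. Impdh2, which makes the guanine branch of the purines, was at 106, 102, 101, 103 and 99.3 CPM in wildtype and at 140, 141, 149 and 153 CPM in Grhl2KO_Myc (log2 fold change 0.51, SE 0.0453, adjusted p = 9.87e-05); its exons overlap Ndufaf3 on the opposite strand. Atic, which closes the purine ring, rose 1.47-fold to 93.7 ± 9.58 CPM, and Gart, of earlier steps, 1.47-fold to 102 ± 10.9 CPM. Ctps, which makes cytidine triphosphate, was at 39.3, 41.5, 39.7, 43.8 and 42.8 CPM in wildtype and at 60.9, 57.2, 55.4 and 57.4 CPM in Grhl2KO_Myc (log2 fold change 0.48, SE 0.0470, adjusted p = 0.000178). Groups stood apart for both Impdh2 and Ctps, and the Myc libraries lay between them, at 111 to 124 and 44.2 to 47.2 CPM. Dctd, of thymidylate supply, rose 1.48-fold to 32.5 ± 2.36 CPM, and Umps, of uridine synthesis, 1.29-fold to 58.5 ± 2.22 CPM.

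In serine, one-carbon and polyamine metabolism 10 of 22 tested genes rose and 0 fell (median log2 fold change 0.20). Mthfd2, the mitochondrial folate enzyme gene, was at 14.8, 12.6, 10.2, 16.2 and 16.2 CPM in wildtype and at 26.5, 23.9, 28.7 and 28.8 CPM in Grhl2KO_Myc (log2 fold change 0.95, SE 0.130, adjusted p = 0.00137). Psat1, of serine synthesis, rose 1.59-fold to 91.8 ± 6.996 CPM, and Srm, the spermidine synthase, 1.71-fold to 54.8 ± 8.26 CPM. The count was 5 without wildtype 1, wildtype 2 or Grhl2KO_Myc 4 and 6 without wildtype 3 or Grhl2KO_Myc 1. Of 22 integrated stress response genes, a program set off when amino acids run short and sharing Mthfd2 and Psat1 with the former list, 7 rose and 1 fell. Asns, the asparagine synthetase, rose 1.82-fold to 17.1 ± 1.62 CPM, and Aldh18a1, of proline synthesis, 1.49-fold to 64.3 ± 7.15 CPM. Vldlr, a lipoprotein receptor, was the fall, 1.36-fold to 92.5 ± 6.19 CPM, and the rises numbered 4 without wildtype 1, wildtype 3 or Grhl2KO_Myc 4. Of 31 amino acid transporters 6 rose; Slc7a5, which carries large neutral amino acids, rose 1.56-fold to 48.5 ± 4.63 CPM, and Slc1a5, for glutamine, 1.36-fold to 94.7 ± 2.16 CPM. That count was 3 without Grhl2KO_Myc 3 or 4, the list's median was -0.06 with 18 of 31 values below 0, and 5 transporters were lower without wildtype 4 against 0 with all libraries.

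Glycolysis gave 3 rises among 23 tested genes (13.0%, against 6.67% of all genes). Eno2, an enolase best known from neurons, was at 13.0, 11.7, 12.04, 24.4 and 11.9 CPM in wildtype and at 28.4, 26.9, 27.8 and 31.2 CPM in Grhl2KO_Myc (log2 fold change 0.97, SE 0.193, adjusted p = 0.0117). Wildtype 4 was close to the Grhl2KO_Myc libraries. The calls of Ldha (log2 fold change 0.44) and Slc16a1 (0.25) were lost in 5 and 8 of the 9 fits, so that Eno2 alone passed without wildtype 1, 2 or 3 or without Grhl2KO_Myc 3 or 4, while 12 genes passed without wildtype 4. Among 24 tested p53 targets 4 were called higher and 1 lower, with 2 higher without wildtype 2, wildtype 3, Grhl2KO_Myc 3 or Grhl2KO_Myc 4 and the lower call present only without wildtype 4 or 5 among the 9 fits; Aen, an apoptotic nuclease gene, rose 1.37-fold to 39.4 ± 2.90 CPM and Tigar, of sugar phosphate metabolism, 1.40-fold to 9.24 ± 0.672 CPM. Of 33 cell cycle genes 2 were called (6.06%, near the 6.67% of all genes), both lower, Ccnd1 (log2 fold change -0.31) and Mki67 (-0.30), which lost their calls in 5 and 4 of the 9 fits; 0 were lower without wildtype 1 or without Grhl2KO_Myc 1, 2 or 3, 1 without wildtype 2 and 7 without the 3 libraries low in proximal tubule markers. Among 13 genes of the Myc and Max network the only call was Mxd4, an opponent of Myc, which was 1.15-fold lower and lost its call in 6 of the 9 fits.

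Promoter letters were read in the windows of RefSeq (build GRCm38.p6), from 250 bases before to 50 bases after each start site, for 13518 tested genes with a window. The E-box CACGTG, the textbook letters of Myc with Max, was searched; it reads the same on both strands. It was present for 18.96% of called higher genes, 10.1% of called lower genes and 10.5% of all genes, and in the 250 upstream bases alone for 13.3%, 8.67% and 8.89%. The grainyhead pattern AACNGGTT, searched on both strands, was present in the whole window for 2.29% of called higher, 3.37% of called lower and 2.41% of all genes, with 15, 14 and 326 genes in number. The stricter AACCGGTT, which is contained in it, was in the whole window of 1 called higher gene (0.153%), 1 called lower gene (0.241%) and 0.259% of all genes; in the 250 upstream bases alone it was found for 0, 1 and 0.207%. A match is a description of the letters and not a binding site. The share of genes called also moved with level, from 0.330% of genes at or under 0.1 CPM to 9.24% of those above 100 CPM, and the part of level in these promoter shares was not tested.

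The 250 bases upstream of Nop2 (chr6:125131633-125131882, plus strand) and Aldh18a1 (chr19:40588464-40588713, minus strand), both of which rose, are shown as examples that hold the E-box 60 and 59 bases before the start, in capitals; each is written 5′ to 3′ on the strand of its gene.
Nop2: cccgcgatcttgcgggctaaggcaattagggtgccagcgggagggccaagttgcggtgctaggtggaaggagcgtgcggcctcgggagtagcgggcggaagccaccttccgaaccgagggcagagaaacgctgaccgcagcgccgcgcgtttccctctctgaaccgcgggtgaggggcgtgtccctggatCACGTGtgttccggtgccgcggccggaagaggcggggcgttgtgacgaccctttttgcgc
Aldh18a1: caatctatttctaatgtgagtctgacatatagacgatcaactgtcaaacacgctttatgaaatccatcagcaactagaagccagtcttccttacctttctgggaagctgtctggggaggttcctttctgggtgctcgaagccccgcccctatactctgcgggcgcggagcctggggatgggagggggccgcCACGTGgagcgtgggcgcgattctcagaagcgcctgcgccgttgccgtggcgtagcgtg
The 250 bases upstream of Wfdc15b (chr2:164221664-164221913, minus strand), Muc1 (chr3:89228806-89229055, plus strand) and Frem2 (chr3:53657356-53657605, minus strand), which fell, hold the grainyhead pattern 12, 180 and 190 bases before the start, in capitals, with that of Frem2 in its reverse-strand form. Neither pattern was limited to one direction: the 250 upstream bases of Aqp6, Mlph, Oxtr and Cgn, which fell, also hold the E-box, and those of Dctd, which rose, and Ugt2b35 (log2 fold change 3.67) and Prps1 (0.20), called higher, hold the grainyhead pattern.
Wfdc15b: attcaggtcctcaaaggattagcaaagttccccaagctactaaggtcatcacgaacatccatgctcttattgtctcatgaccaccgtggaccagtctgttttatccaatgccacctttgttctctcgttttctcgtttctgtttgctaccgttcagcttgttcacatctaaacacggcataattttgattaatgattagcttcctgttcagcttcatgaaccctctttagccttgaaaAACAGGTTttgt
Muc1: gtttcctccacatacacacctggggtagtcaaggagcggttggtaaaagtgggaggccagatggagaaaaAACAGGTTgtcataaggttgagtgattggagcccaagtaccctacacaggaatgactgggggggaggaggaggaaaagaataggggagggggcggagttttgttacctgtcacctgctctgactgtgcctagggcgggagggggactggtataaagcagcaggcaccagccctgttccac
Frem2: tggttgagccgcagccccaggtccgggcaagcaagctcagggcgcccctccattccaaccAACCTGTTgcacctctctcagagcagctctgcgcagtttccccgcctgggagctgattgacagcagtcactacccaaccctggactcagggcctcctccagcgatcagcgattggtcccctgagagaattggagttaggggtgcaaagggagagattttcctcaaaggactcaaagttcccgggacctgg
Wfdc15b, a secreted protease inhibitor gene, was at 23.4, 21.7, 24.7, 19.9 and 22.8 CPM in wildtype and at 8.85, 8.67, 5.74 and 5.08 CPM in Grhl2KO_Myc (log2 fold change -1.67, SE 0.158, adjusted p = 0.000146), with the Myc libraries at or above the wildtype level at 24.5, 28.7 and 24.5 CPM.

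Of 20 leukocyte markers tested 1 was called (5.00%, against 6.67% of all genes), and 2 were higher without wildtype 4 or wildtype 5. Ptprc, the CD45 gene that marks all white blood cells, was at 13.6, 14.1, 14.6, 13.9 and 17.3 CPM in wildtype and at 23.4, 25.1, 31.4 and 29.6 CPM in Grhl2KO_Myc (log2 fold change 0.90, SE 0.120, adjusted p = 0.00118). The Myc libraries, at 15.1, 19.2 and 22.0 CPM, lay within or above the wildtype range and below each Grhl2KO_Myc library. The list as a whole did not follow, with 10 values above and 10 below 0 (median log2 fold change -0.01) and sums of 176.6 to 202.4 CPM in wildtype and 185.3 to 240.7 CPM in Grhl2KO_Myc; Cd3e and Nkg7 were too low to be tested. The injury markers Havcr1 and Lcn2 were at 0.559 ± 0.241 and 11.3 ± 1.47 CPM in wildtype and at 0.720 ± 0.0797 and 11.7 ± 1.71 CPM in Grhl2KO_Myc (adjusted p = 0.523 and 0.844).

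The floxed gene and the transgene lie on chromosomes 15 and 6, and genes near them can differ with the strain of the surrounding chromosome. The animals labelled wildtype carried both as well, and the part of strain in the values below was not tested. Within 2 Mb of Grhl2 3 of 36 tested genes were called (8.33%), and within 2 Mb of the Rosa26 locus 4 of 49 (8.16%), against 6.67% overall. Near Grhl2 these were Pabpc1, higher, and Osr2 and Gm16136, lower, each lost in 6 of the 9 fits. Near Rosa26, Il17re, an interleukin-17 receptor gene of epithelia, was at 11.4, 10.8, 8.94, 6.75 and 10.98 CPM in wildtype and at 2.68, 2.71, 2.85 and 1.41 CPM in Grhl2KO_Myc (log2 fold change -2.02, SE 0.210, adjusted p = 0.000243). The Myc libraries, at 13.4, 12.1 and 13.1 CPM, were above the wildtype range. Oxtr, the oxytocin receptor gene, fell 1.41-fold to 13.0 ± 0.381 CPM, while the calls of Srgap3, lower, and Thumpd3, higher and overlapping Gt(ROSA)26Sor on the opposite strand, were lost in 3 and 6 of the 9 fits.

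Between 41809083 and 42589938 on chromosome 4 (mm10), 14 of 46 tested genes were called lower by 2-fold or more and 1 was called higher; this cluster was singled out after its values were seen. All 14 are numbered gene models in a stretch of similar gene copies, between which reads can be shared, so single values are uncertain; the number of copies in each animal is not known from these data. The summed level of these 14 was 76.1, 70.1, 81.4, 57.5 and 52.4 CPM in wildtype and 23.7, 21.4, 14.8 and 14.9 CPM in Grhl2KO_Myc. They were picked for being lower in Grhl2KO_Myc, so the gap between these sums follows in part from that choice. It does not describe all 46 tested genes. The Myc libraries were within the wildtype range, at 62.2 to 69.0 CPM. Gm13301 was the most reduced of the 14, at 3.45 to 6.89 CPM in wildtype and 0.319 to 0.581 CPM in Grhl2KO_Myc (log2 fold change -3.42, adjusted p = 3.54e-05).

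**Figure D4:**
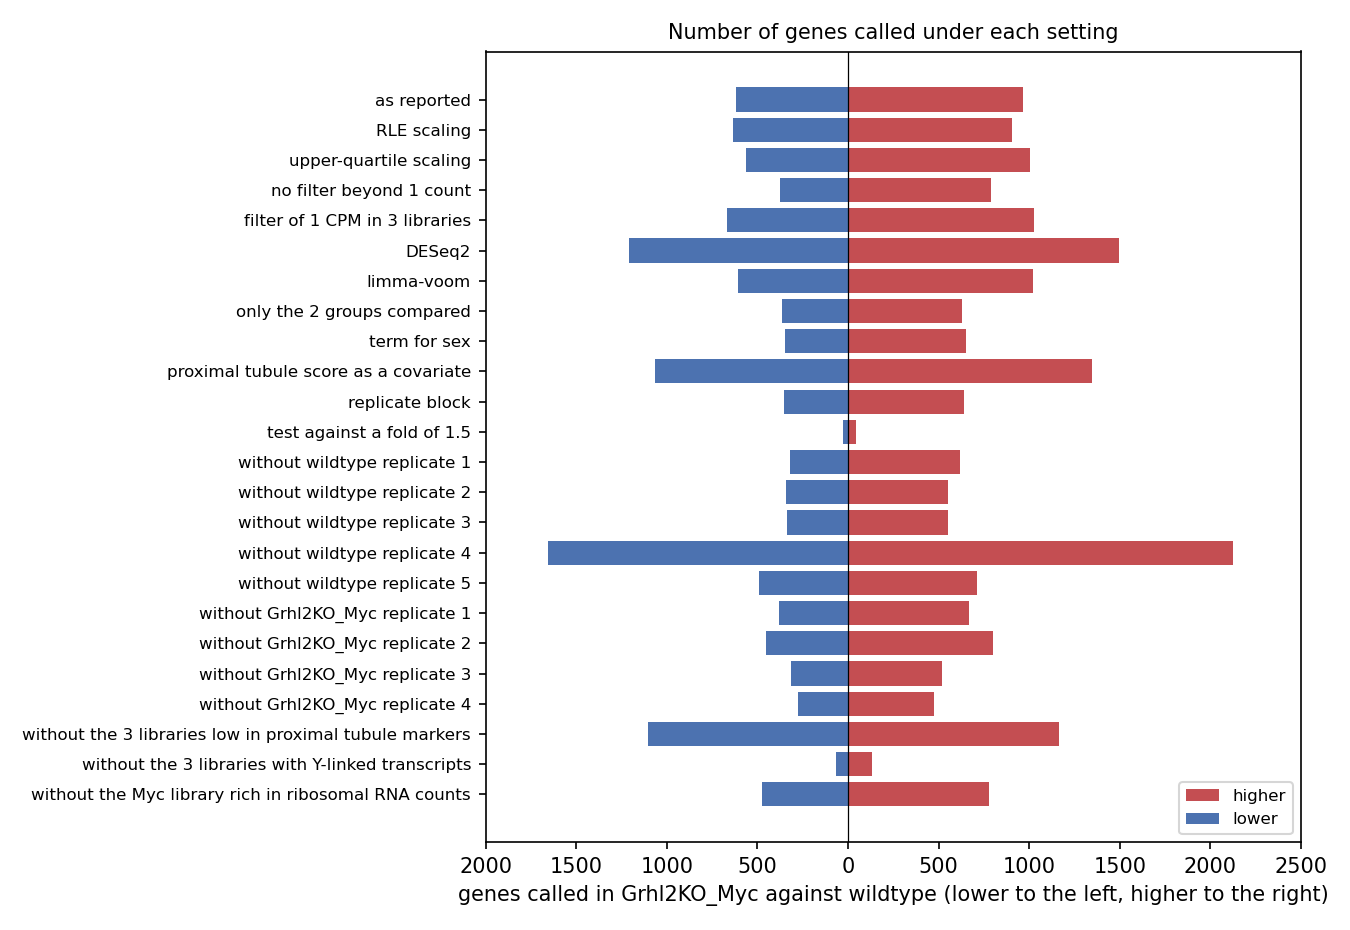
Number of genes called higher and lower in Grhl2KO_Myc (horizontal axis) under each of 24 settings of the analysis (rows). The counts were largest without wildtype 4 (2125 higher, 1653 lower) and were 46 higher and 29 lower when tested against a fold of 1.5.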

How the data were processed

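Polyadenylated RNA of whole right kidneys was made into libraries with the TruSeq RNA kit v2, a kit that keeps no strand, per the labels' protocols. The submitters' processing notes name HISAT2 and mm10; the annotation, the counting program and the HISAT2 version are not named in those sources. The deposited table holds raw counts per gene, with no normalization by the authors, for 46403 genes in 12 libraries, and columns were matched to libraries through their names.

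From these counts edgeR 4.0.16 (R 4.3.3, limma 3.58.1) was run with TMM scaling, the filterByExpr filter (23742 genes left), all 12 libraries in 1 fit with a coefficient per group, its quasi-likelihood F test and Benjamini-Hochberg adjustment over all genes tested; a gene was called at an adjusted p under 0.05. CPM values use TMM-scaled totals, and the SE was taken from the fold change and the F statistic. Every adjusted p printed comes from this test. On simulated counts for the same 23742 genes and the same comparison it found 58.2% of the genes that had been changed 1.5-fold, 91.0% of those at 2-fold and 98.5% of those at 4-fold. Among the unchanged genes 11 were called. The changed genes were drawn from those above 1 CPM on average, and each gene was simulated independently. These values therefore do not cover changes at lower levels or differences that many genes of a library share. The alternatives included RLE and upper-quartile scaling, other filters, DESeq2 1.42.0, limma-voom, covariates and left-out libraries. Within the groups compared, the most similar libraries, Grhl2KO_Myc 3 and 4, had a chi-square of 12.7 for each degree of freedom. This was above the 1 that sampling noise gives, so none was counted as a repeat sequencing of the same library. Separate libraries made from the same animal would not be found this way.

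Symbols were matched to GENCODE M21 (90.6% of genes), which gave positions and exon overlaps; promoter windows came from RefSeq. The comparison and the 59 gene lists were chosen with earlier results of these data known. Named genes were Grhl1, Grhl2, Grhl3 and Myc; then, among called genes with at least 1 CPM in either group and no overlap between groups, the 25 largest rises and 25 largest falls, the 12 of each with the smallest adjusted p and the 10 of each with the largest CPM difference; the called members of each list, at most 6 by smallest adjusted p, and its defining members; and called genes within 2 Mb of Grhl2 or Rosa26. Numbered gene models, pseudogenes, immune receptor segments, Xist, Tsix and Y-linked genes were left out of that rule. Of these, a selection is described, and some genes are not reported here.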

Additional observations from a re-analysis of the deposited data

Results flagged for a closer look

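For each of the 176 genes of the naming rule that the text names, the highest and lowest library of each group was set against the rest by Dixon's criterion at 95%. 34 of 352 groups stood out, where chance gives about 1 in 20, and in 21 of the 34 the library was wildtype 4. Wildtype 4 was low for Cgn (46.2 CPM, others 52.3 to 53.8), Fgfr3 (46.8 CPM, others 58.2 to 60.8), Frem2 (125 CPM, others 168 to 176), Klhl3 (6.76 CPM, others 9.42 to 10.4), Muc20 (13.8 CPM, others 25.004 to 28.5) and Myo3b (2.73 CPM, others 6.01 to 7.01). The same held for Nid2 (179 CPM, others 206 to 215), Nphs1 (46.5 CPM, others 66.7 to 73.03), Pkd2 (146 CPM, others 173 to 180), Pkhd1 (27.4 CPM, others 62.8 to 73.1) and Umod (158 CPM, others 396 to 444). It was high for Asns (11.4 CPM, others 8.47 to 9.26), Eno2 (24.4 CPM, others 11.7 to 13.02), Kcnn4 (5.65 CPM, others 3.75 to 4.28), Krt15 (1.44 CPM, others 0.521 to 0.739) and Npm1 (656 CPM, others 516 to 546). The same held for Osr2 (51.5 CPM, others 38.7 to 39.8), Pabpc1 (647 CPM, others 549 to 555), Polr1e (15.2 CPM, others 12.1 to 12.9), Slc26a7 (18.95 CPM, others 12.3 to 13.6) and Spink8 (25.9 CPM, others 22.4 to 23.4). The sum of proximal tubule markers was also lowest in wildtype 4, and the part of that in these values was not tested.

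Other libraries stood out in fewer groups. Wildtype 1 was high for Lama4 (154 CPM, others 124 to 128). Wildtype 3 was high for Lmo3 (0.678 CPM, others 0.208 to 0.288), Podxl (460 CPM, others 399 to 416) and Ugt2b35 (0.303 CPM, others 0.0555 to 0.0899). Wildtype 5 was low for Pax8 (127 CPM, others 136 to 138). Wildtype 5 was high for Ptprc (17.3 CPM, others 13.6 to 14.6). Grhl2KO_Myc 1 was low for Ets1 (98.96 CPM, others 108 to 109). Grhl2KO_Myc 2 was low for Epcam (168 CPM, others 171 to 172) and Shh (5.45 CPM, others 6.81 to 6.96). Grhl2KO_Myc 2 was high for Disp2 (4.44 CPM, others 0.475 to 1.09) and Spock1 (3.505 CPM, others 1.196 to 1.58). Grhl2KO_Myc 3 was high for Dsp (48.4 CPM, others 39.6 to 40.9). Grhl2KO_Myc 4 was low for Il17re (1.41 CPM, others 2.68 to 2.85).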

How the results depend on the processing

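No named gene that was called changed direction under any alternative that was run. Against 965 genes called higher and 619 lower, DESeq2 called 1495 and 1208 (with 1477 adjusted p-values not given), the fit of the compared groups alone 629 and 366, and a test against a fold of 1.5 46 and 29. Lower genes numbered 374 with no filter beyond 1 count, 348 when sex was a term of the fit and 1065 when the proximal tubule score was a covariate. Leaving out 1 library gave 475 to 2125 higher and 275 to 1653 lower genes, the lowest without Grhl2KO_Myc 4 and the highest without wildtype 4. Without the 3 libraries low in proximal tubule markers 1167 and 1105 genes were called, and without the 3 with Y-linked transcripts 131 and 66. Both of these fits left out 3 libraries. The cause of the shifts above was not tested. RLE scaling, upper-quartile scaling, limma-voom and a filter of 1 CPM gave 905 to 1029 higher and 562 to 670 lower genes. The share of calls that were higher was 60.9%, against 51.4% without the libraries low in proximal tubule markers and 67.8% with no filter. At an unadjusted p of 0.05, 5212 genes passed in edgeR.

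The replicate numbers shared by the groups were not taken as pairs: same-numbered libraries correlated in their deviations by -0.08, 0.03, -0.11 and 0.23. With the replicate number as a block 641 genes were higher and 352 lower, and 60 named genes lost their call. Named genes that lost their call numbered 56 with sex as a term of the fit and 176 without the 3 libraries with Y-linked transcripts. In the test against a fold of 1.5 they numbered 201. Of 237 named genes that were called, 151 kept the call with each library left out in turn. The medians of the principal cell and leukocyte markers, both near 0, change sign between scalings. Depth limits the genes at or under 0.1 CPM, of which 0.330% were called.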

Other observations

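Gasdermins, some of which can form pores in membranes, lie in part as a cluster on chromosome 15, and 4 of 8 tested were called lower in Grhl2KO_Myc. Gsdmc3 was at 14.1, 14.5, 16.01, 4.07 and 12.5 CPM in wildtype, at 11.7, 36.1 and 31.6 CPM in Myc and at 3.12, 3.25, 2.03 and 0.986 CPM in Grhl2KO_Myc (log2 fold change -2.39, SE 0.469, adjusted p = 0.0108). The groups did not overlap, and wildtype 4 was the control nearest to Grhl2KO_Myc. Gsdmc, Gsdmc2 and Gsdmc4 lost their calls in 8, 7 and 4 of the 9 fits with 1 library left out, so that the lower calls numbered 1 without wildtype 2 or 3 or without Grhl2KO_Myc 3 or 4 and 2 without wildtype 1, wildtype 5 or Grhl2KO_Myc 1. These are close paralogs, between which reads may be shared.

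Proteasome subunits, which form the protease that degrades tagged proteins, had 4 rises among 39 tested genes (10.3%, against 6.67% of all genes), and all 39 log2 fold changes were above 0 (median 0.12). The share called was 9.16% of genes between 10 and 100 CPM and 9.24% of those above. Mitochondrial ribosomal protein genes gave 5 rises among 77 (6.49%, median 0.10), near the background share. By annotated kind, 778 of 16161 protein coding genes were higher and 538 lower. Among 1850 processed pseudogenes 44 were higher and 2 lower (2.49% called, against 6.67% of all genes); these resemble the spliced transcripts of their parent genes, from which reads may be shared, and this was not tested.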
